A study of Mus musculus with 168 samples.

Results

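The midbrain of mice that had breathed room air for 1 h after a 3 h hypoxic exposure was compared with the midbrain of control mice. The 6 arrays used, 3 at 1 h of reoxygenation (R1) and 3 of the control group labelled 0hr, were taken by the region and time named in their titles, out of 24 midbrain arrays and the same number in each of 6 other regions. The study profiled 7 brain regions of adult C57BL/6 mice in 8 groups, a control and 7 times during and after hypoxia, with Affymetrix expression arrays to follow the response to a preconditioning hypoxia, a mild exposure that protects against a later injury. The R1 mice were males aged 8 to 9 weeks kept in 8% oxygen for 3 h and then returned to room air. The controls, of the same strain, sex and age, went through a sham exposure, which in the study's methods was 3 h in the same chambers with room air followed by 24 h in the home cage. Hypoxia, reoxygenation and the shorter interval between chamber and dissection therefore came together in the R1 group, and their parts, or that of the time of day, cannot be told apart. The labels number the arrays 1 to 3 within a group, and the methods state 3 mice per group with all 7 regions taken from each, so that an array was 1 mouse.

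The midbrain holds the dopamine neurons of the substantia nigra and ventral tegmental area, the raphe and oculomotor nuclei, and the colliculi. When oxygen falls, the prolyl hydroxylases that mark hypoxia-inducible factor 1 (HIF-1) for destruction slow down, and HIF-1 turns on genes for blood vessel growth, glucose use and growth arrest. Reoxygenation restores the hydroxylases, so that transcripts driven by HIF-1 decay while transcripts of later waves, such as those answering glucocorticoid stress hormone or neuronal activity, may still be present.

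In the controls the dissection matched its label. Of 13 measured midbrain markers, 11 had their highest control level in the midbrain among the 7 regions, with Th, which makes dopamine, at a mean intensity of 498 against 110 in the next region and the dopamine transporter Slc6a3 at 625 against 39.1. The exceptions were En2 and Tph2, for which the midbrain ranked second. Choroid plexus markers varied from array to array, with a summed intensity of 375, 4631 and 395 in the controls and 1148, 3402 and 5370 at R1. No gene of that list or of the 18 other marker lists passed the test, and the Ttr probe sets, at 2.35 to 3.16 on the log2 scale with adjusted p-values from 0.716 to 0.759, stood far from the other bright points. Ttr made up most of the sum (a control mean of 1422 out of 1800). Of the 7 choroid plexus markers measured, 6 had a positive change, with a median of 0.395. From control to R1 the mean intensity went from 36.5 to 49.1 for Kl and from 49.7 to 68.6 for Folr1. It went from 38.7 to 62.8 for Sostdc1 and from 14.6 to 16.6 for Aqp1. Kcnj13 and Clic6 had mean intensities of 102.9 and 135.7 in the controls and 102.9 and 122.7 at R1. Pons and medulla markers summed to 464.3, 439.5 and 595.7 in the controls and 389.1, 418.8 and 423.2 at R1, with 2 of 10 positive. Thalamus markers summed to 4121, 4049 and 4198 in the controls and 3674, 4872 and 5113 at R1, with 6 of 8 positive. Of the 13 midbrain markers 3 had a positive change, with a median of -0.211. The part of choroid plexus or neighbouring tissue in other results was not tested. In control replicate 1 the actin 3′ to 5′ ratio, a sign of RNA integrity, was 1.42, against 1.05 to 1.18 in the other 5 arrays. Bulk tissue gives 1 level per array, and fewer cells of a type cannot be told apart from less RNA per cell.

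At R1, 94 of 45037 probe sets differed from control (limma, adjusted p under 0.05), which is 0.209% of those tested, and they were evenly divided, with 47 higher and 47 lower (0.104% each). They named 34 genes that rose and 41 that fell. The rises were the larger, with a median log2 change of 0.82 (lowest 0.44, highest 1.94), and included Cdkn1a, Ciart, Vegfa, Txnip, Per1 and Junb. The falls had a median size of 0.62 (0.37 to 1.24) and included the splicing factor Rbm5, the chromatin remodeller Smarcad1 and several zinc-finger genes. In all 94 the 3 R1 arrays lay outside the range of the 3 controls, as they did above the controls in 4.44% and below them in 8.22% of all probe sets. The calls borrow the spread of the other midbrain groups: with the 6 arrays alone none passed, although 3237 probe sets had an unadjusted p under 0.05, against 3787 in the fit of all 24 arrays. Centring each array on its median gave 43 higher and 19 lower, and among the genes that no longer passed were St8sia4, Mir124a-1hg, Runx1t1, E2f6, Gadd45g, Ppp1r3c, Zfp658, Zfp770 and Zfp866.

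Leaving out 1 array lowered the counts, except that of the lower probe sets without control replicate 3. Without control replicate 1 there were 20 higher and 21 lower, without control replicate 2 17 and 10, and without control replicate 3 39 and 47. Without R1 replicate 1 there were 16 and 9, without R1 replicate 2 13 and 21, and without R1 replicate 3 23 and 21. Of the 30 genes named for the size of their change, 9 passed in all 6 of these fits at the probe set of largest change, namely Txnip, Ciart, Hmgb2, Apold1, Mrpl15, Rbm5, Smarcad1, St8sia4 and Zfp84. Another probe set of Cdkn1a and of Errfi1 did so as well. The other 21 probe sets missed the threshold in at least 1 fit, and their highest adjusted p-values ran from 0.0592 (Junb) to 0.193 (Runx1t1). Their sign could not change in these fits, since they were chosen for groups that did not overlap. Egr1 and Runx1t1 missed it in all 6. Leaving out R1 replicate 1 lost 20 of the 21, and leaving out control replicate 3 lost 5.

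**Figure D1:**
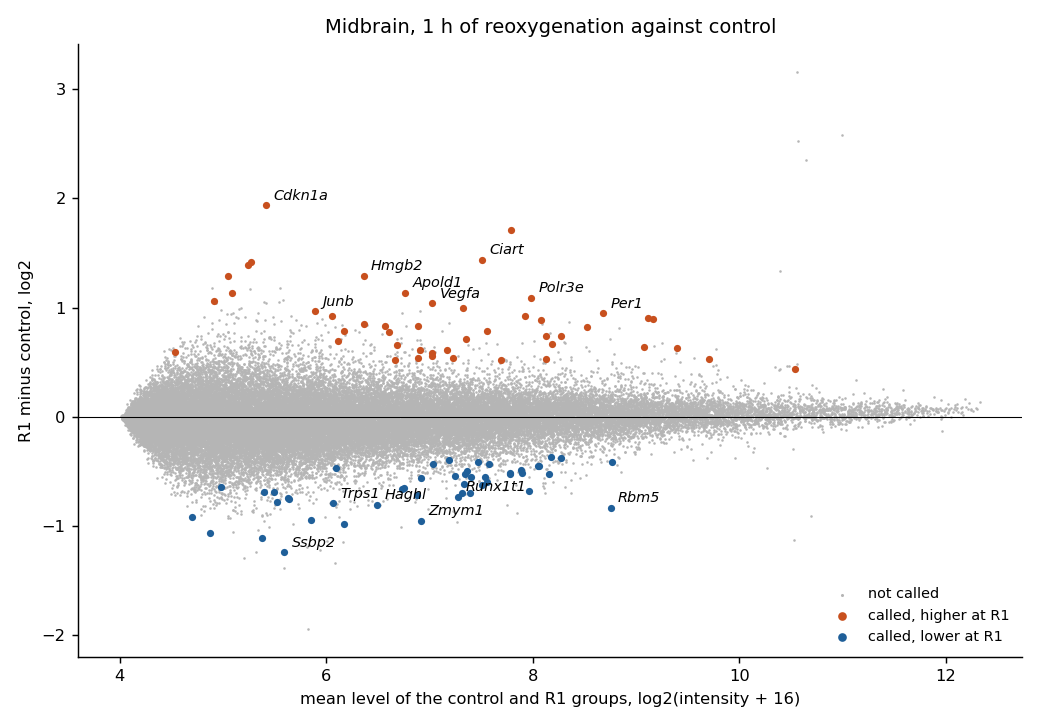
Change of each of 45037 probe sets at R1 against its mean level in the control and R1 groups, both on the log2(intensity + 16) scale. Orange and blue points are the 47 higher and 47 lower probe sets that passed limma's adjusted test; the grey points above 2 are Ttr probe sets, which did not pass.

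Among the rises, the cyclin-dependent kinase inhibitor Cdkn1a (p21), which halts the cell cycle, changed most. Its brighter probe set read 71.2, 88.4 and 167 in the controls and 335, 351 and 434 at R1, a rise of 1.71 on the log2 scale (SE 0.25, adjusted p = 0.005) by limma. The groups were well apart, and the third control was the highest of its group. A dimmer probe set of the gene rose as well, by 1.94 on the log2 scale (SE 0.37, adjusted p = 0.028), from lower control levels. The brighter one passed without any single array, whereas the dimmer one passed only without control replicate 3. Cdkn1a is a target of p53, of HIF-1 and of the glucocorticoid receptor. Of 22 p53 targets measured, it was the 1 that passed, and their median change was 0.12 against a median of -0.03 over 18193 genes. The p53-induced Pmaip1 (NOXA), at 1.00, missed the threshold (adjusted p = 0.101).

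Of the growth-arrest genes of the GADD45 family, which sense stress and bind cell cycle kinases, Gadd45b and Gadd45g rose with it. Gadd45a did not pass. Gadd45b read 33.2, 51.8 and 51.4 in the controls and 99.6, 103 and 79.0 at R1, a rise of 0.85 on the log2 scale (SE 0.15, adjusted p = 0.019), without overlap of the groups. Gadd45g rose by 0.65 on the log2 scale (SE 0.12, adjusted p = 0.024). Gadd45b's other, brighter probe set read 0.59 (adjusted p = 0.404). In the list of 7 BTG/TOB and GADD45 genes, 1 passed at its brightest probe set, and the median change was 0.33. At 1 probe set per gene, 0.286% of 18193 genes passed, 0.132% higher and 0.154% lower. These shares are the background for the count of every list.

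Of 19 circadian clock genes measured, 3 on the repressor side rose, namely Ciart, Per1 and Nr1d1, against 0.132% of all genes. Ciart (CHRONO), a repressor of the CLOCK and BMAL1 activators, read 116, 72.2 and 97.1 in the controls and 286, 276 and 283 at R1, a rise of 1.44 on the log2 scale (SE 0.16, adjusted p = 0.00082). The 3 R1 arrays were nearly identical and more than double the highest control. Per1, a period gene that also answers glucocorticoid and cyclic AMP within the hour, read 270.4, 229 and 341 and 552, 505 and 596, a rise of 0.95 on the log2 scale (SE 0.15, adjusted p = 0.009), and the groups did not overlap. Nr1d1 (REV-ERB alpha), the nuclear receptor that represses Bmal1, rose by 0.52 on the log2 scale (SE 0.09, adjusted p = 0.020). The other 16 of 19 clock genes did not pass. Per2, also on the repressor side, was at -0.42 (adjusted p = 0.466). Arntl, the gene of BMAL1, was at -0.11 (adjusted p = 0.884), and the list's median was 0.07.

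The promoters of Ciart and Per1 are shown because both genes rose together and the E-box, the site of the clock's activators, can be read in them. The windows run from 250 bases before to 50 after the start site in RefSeq's annotation of GRCm38.p6, are printed 5′ to 3′ on the gene's strand, and carry the E-box letters CACGTG in capitals. The Ciart window, chr3:95882179-95882478 on the minus strand, held 3 of them at -116, -58 and -44, and the Per1 window, chr11:69098699-69098998 on the plus strand, held 1 at -166.
Ciart: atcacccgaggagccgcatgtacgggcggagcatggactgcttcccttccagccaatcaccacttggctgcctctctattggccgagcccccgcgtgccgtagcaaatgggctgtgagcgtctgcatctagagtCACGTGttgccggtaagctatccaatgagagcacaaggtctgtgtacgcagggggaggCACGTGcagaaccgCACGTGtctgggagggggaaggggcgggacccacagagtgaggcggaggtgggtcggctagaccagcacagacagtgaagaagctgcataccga
Per1: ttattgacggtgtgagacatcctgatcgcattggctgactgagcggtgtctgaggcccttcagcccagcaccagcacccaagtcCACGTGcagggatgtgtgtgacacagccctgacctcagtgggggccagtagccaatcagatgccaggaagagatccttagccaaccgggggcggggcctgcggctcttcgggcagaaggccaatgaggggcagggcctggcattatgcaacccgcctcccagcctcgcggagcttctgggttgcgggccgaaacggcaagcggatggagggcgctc

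Of the 34 genes that rose, 31 had a window, and 7 of these (22.6%) held CACGTG on either strand, namely Ciart, Gadd45b, Gadd45g, Maff, Per1, Polr3e and Ppp1r3c. Of 34 windowed genes that fell, 4 (11.8%) held it, and so did 8.09% of all 27025 genes with a window. The hypoxia response core ACGTG, which lies inside every CACGTG, was found in 13 of the 31 (41.9%) and 8 of the 34 (23.5%), against 21.8% of all genes. Among genes without an E-box it was found in 6 of 24 that rose, Vegfa and Nr1d1 among them, in 4 of 30 that fell and in 14.9% of all 24838. A match describes the letters of a window and was not tested against binding.

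Among the 25 gene lists, cell type markers aside, genes induced by glucocorticoids had the highest median after the BTG/TOB and GADD45 group. Of 26 measured, Cdkn1a, Per1 and Errfi1 passed, against 0.132% of genes called higher. A positive change was seen in 20, and the median was 0.31 against -0.03 over all genes. Errfi1 (MIG6), an inhibitor of the EGF receptor, read 246, 264 and 272 in the controls and 476, 472 and 469 at R1, a rise of 0.82 on the log2 scale (SE 0.14, adjusted p = 0.012). The 3 R1 arrays were within a few units of each other, and a second probe set rose by 0.74 on the log2 scale (SE 0.08, adjusted p = 0.00082). Nfkbia (I kappa B alpha), which holds NF-kappaB in the cytoplasm, read 388, 341 and 489 and 819.8, 779 and 688 at 1 probe set, a rise of 0.89 on the log2 scale (SE 0.16, adjusted p = 0.020). Its brightest probe set was at 0.49 (adjusted p = 0.071), and the remaining 3 were at 0.31 to 0.82 without passing. Sgk1, a kinase strongly induced by the hormone, read 779.8, 425 and 1428 in the controls and 1999, 2079 and 1931 at R1. All R1 arrays were above all controls, yet the controls differed more than 3-fold from each other, and the change of 1.34 did not pass (adjusted p = 0.255). Tsc22d3 and Fkbp5, textbook targets of the receptor, did not pass.

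Thioredoxin-interacting protein, Txnip, an alpha-arrestin that limits glucose uptake and is a target of FOXO factors, read 157, 174 and 148 in the controls and 307, 338 and 310.1 at R1, a rise of 0.93 on the log2 scale (SE 0.11, adjusted p = 0.00082). Its second probe set rose by 0.71 on the log2 scale (SE 0.12, adjusted p = 0.015). It was the 1 of 24 FOXO targets and alpha-arrestins that passed, with Arrdc3, a relative that controls receptor traffic, at 0.53 (adjusted p = 0.068). The list's median was 0.10. The Txnip and Errfi1 windows are shown with the letters of other stress pathways in capitals. In Txnip, chr3:96557707-96558006 on the plus strand, they mark a match to the glucocorticoid response element at -172 and a FOXO site, TGTTTAC read from the opposite strand, at -121. In Errfi1, chr4:150854820-150855119 on the plus strand, they mark a cyclic AMP response element, TGACGTCA, at -51.
Txnip: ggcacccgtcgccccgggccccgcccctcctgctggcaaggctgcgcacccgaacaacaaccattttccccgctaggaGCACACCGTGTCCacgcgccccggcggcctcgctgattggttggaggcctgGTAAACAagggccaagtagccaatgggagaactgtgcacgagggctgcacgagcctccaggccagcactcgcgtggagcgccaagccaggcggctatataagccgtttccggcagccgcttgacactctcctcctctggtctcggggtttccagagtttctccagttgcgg
Errfi1: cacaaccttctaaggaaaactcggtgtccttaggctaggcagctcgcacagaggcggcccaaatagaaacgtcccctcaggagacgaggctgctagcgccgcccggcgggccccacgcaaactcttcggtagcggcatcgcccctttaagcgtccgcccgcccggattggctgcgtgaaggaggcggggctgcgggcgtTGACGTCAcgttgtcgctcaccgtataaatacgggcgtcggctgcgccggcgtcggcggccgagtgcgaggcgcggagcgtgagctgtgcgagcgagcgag
The glucocorticoid element was found in 0.537% of all genes with a window and in 1 of the 31 that rose, the FOXO site in 4.05% and in 2 of 31, and the cyclic AMP element in 2.03% and in 2 of 31, the second being Maff. The AP-1 site TGANTCA was found in 8.97% of all genes and in 1 of 31, Csrnp1. All were searched on both strands.

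Of 41 HIF-1 targets, Vegfa and Cdkn1a passed at their brightest probe set, against 0.132% of genes called higher, and 28 had a positive change. Vegfa, the growth factor of blood vessels, read 169.7, 212 and 167 in the controls and 296, 354 and 404 at R1, a rise of 0.88 on the log2 scale (SE 0.15, adjusted p = 0.017), and its second probe set rose by 1.04 on the log2 scale (SE 0.20, adjusted p = 0.030). The list's median was 0.08. Ddit4 (REDD1), which restrains mTOR, read 374, 418 and 546 and 688, 799 and 618 without overlap, and its change of 0.65 did not pass (adjusted p = 0.094). The vasodilator Adm was at 0.64 (adjusted p = 0.509) and Slc2a1, the glucose transporter of the blood-brain barrier, at 0.33 (adjusted p = 0.490). Id2, which blocks helix-loop-helix transcription factors, rose by 0.64 on the log2 scale (SE 0.11, adjusted p = 0.020) at 1 of its 3 probe sets, while its brighter one was at 0.51 (adjusted p = 0.180).

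Endothelial genes were represented by Apold1, an early-response gene of vessel walls, which read 57.5, 58.8 and 55.5 in the controls and 136, 138 and 162 at R1, a rise of 1.14 on the log2 scale (SE 0.16, adjusted p = 0.004). The controls lay within a few units of one another and every R1 array was more than double them. Of 29 angiogenic and endothelial genes, Apold1 and Vegfa passed, against 0.132% of genes called higher, and the median was -0.06. The vasoconstrictor Edn1 read 12.0, 11.3 and 27.5 and 46.8, 47.6 and 40.05, all R1 arrays being higher, with a change of 0.92 that did not pass (adjusted p = 0.366). The 8 measured endothelial markers gave no call, with a median of -0.01.

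**Figure D2:**
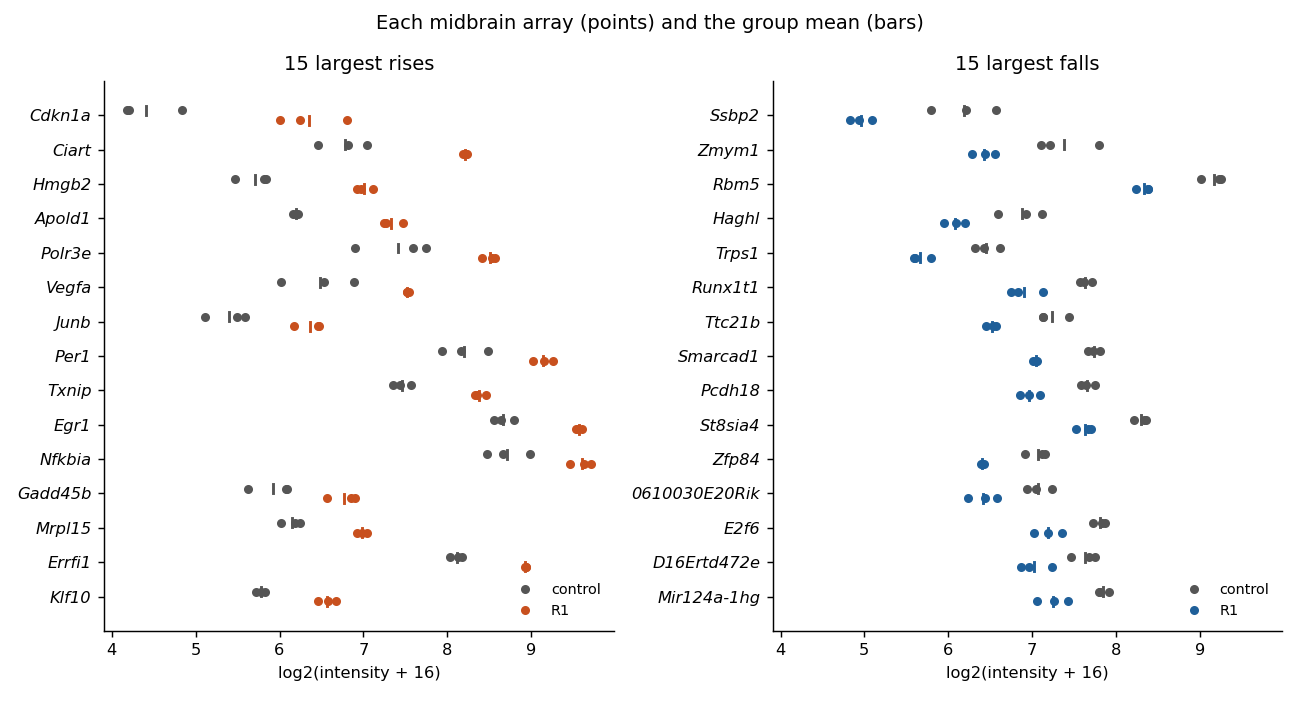
Level of the 15 genes with the largest rises and the 15 with the largest falls in each of the 3 control arrays (grey) and 3 R1 arrays (orange or blue), as log2(intensity + 16), with bars at the group means. In every row the groups do not overlap, which was a condition for choosing these genes. Levels should be compared within a row, since each probe set has its own brightness.

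Immediate early genes, which are transcribed within minutes of a stimulus without new protein, gave 5 rises among 36 measured. Over all 18193 genes, 0.132% were called higher. Junb, an AP-1 subunit, read 29.0, 32.2 and 18.6 in the controls and 71.7, 72.7 and 56.4 at R1, a rise of 0.97 on the log2 scale (SE 0.15, adjusted p = 0.009). Egr1, a zinc-finger factor used as a marker of neuronal activity, read 359.6, 426 and 383 and 761, 728 and 740.3, a rise of 0.91 on the log2 scale (SE 0.17, adjusted p = 0.024). Both genes were separated by a wide gap between the groups. Klf10, a Kruppel-like factor of growth inhibition, read 39.0, 36.8 and 40.9 and 79.7, 71.9 and 85.9 and rose by 0.79 on the log2 scale (SE 0.13, adjusted p = 0.012). Csrnp1, a nuclear protein first described as induced by AXIN, rose by 0.78 on the log2 scale (SE 0.12, adjusted p = 0.006). The small MAF protein Maff rose by 1.14 on the log2 scale (SE 0.23, adjusted p = 0.040) from control intensities below 8, where the fold depends on the pseudocount. Fos read 171, 329 and 189.7 and 424, 377 and 454, with all R1 arrays higher and a change of 0.87 that did not pass (adjusted p = 0.230). Arc and Bdnf, which follow synaptic activity, were at -0.17 (adjusted p = 0.797) and -0.20 (adjusted p = 0.816). The list's median was 0.23 against -0.03 over all genes, with 27 of 36 positive. Of 13 Kruppel-like factors, Klf10 was the 1 that passed, and their median was 0.24.

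Other rises fell outside these groups or alone within a list. Hmgb2, a DNA-bending chromatin protein, read 40.5, 41.2 and 28.5 in the controls and 106, 109.7 and 122 at R1, a rise of 1.29 on the log2 scale (SE 0.18, adjusted p = 0.004), as the only call among 22 chromatin proteins and histone demethylases. Its other probe sets were at 0.82 (adjusted p = 0.248) and 0.34 (adjusted p = 0.669), and the one that passed is of a kind whose probes may also bind related transcripts. Polr3e, a subunit of RNA polymerase III, read 178, 103 and 199.5 and 326, 354 and 365, a rise of 1.09 on the log2 scale (SE 0.21, adjusted p = 0.027), with its second probe set at 0.40 (adjusted p = 0.514). Mrpl15, a protein of the mitochondrial ribosome, rose by 0.84 on the log2 scale (SE 0.11, adjusted p = 0.002) at 1 probe set, while the 4 brighter ones of the gene were at -0.14 to -0.06. The rise was thus read at that probe set alone, which is of the same kind as the Hmgb2 probe set that passed. Ppp1r3c, which targets a phosphatase to glycogen, rose by 0.53 on the log2 scale (SE 0.11, adjusted p = 0.049) and was the 1 of 32 glycolysis and glucose genes to pass. The survival kinase Pim3 (0.66), the linker histone H1f2 (0.63) and Tiparp (0.56), a mono-ADP-ribosyltransferase, also rose.

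Among the falls was that of Rbm5, an RNA-binding splicing factor which governs exon choice in apoptosis genes. It read 596, 585 and 499.7 in the controls and 317, 318 and 286 at R1, a change of -0.83 on the log2 scale (SE 0.12, adjusted p = 0.005). The groups were far apart, and a second probe set read -0.74 without passing (adjusted p = 0.111). Of 45 splicing kinases and regulators it was the 1 that passed, the median being -0.03. Clk1, a kinase of SR splicing proteins, read 312, 401 and 301 and 189, 206 and 208, and its change of -0.70 fell just short (adjusted p = 0.054). The cold-inducible RNA-binding gene Cirbp was at 0.58 (adjusted p = 0.127).

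Other falls were of genes outside the lists. Smarcad1, a SWI/SNF-like remodeller that keeps heterochromatin through replication, read 208, 196 and 188 in the controls and 118, 113 and 117 at R1, a change of -0.69 on the log2 scale (SE 0.08, adjusted p = 0.001). The R1 arrays were within 5 units of each other. E2f6, a repressive member of the E2F family, read 212, 218 and 196 and 114, 130.3 and 147, a change of -0.62 on the log2 scale (SE 0.11, adjusted p = 0.020). The polycomb-linked factor Yy1 fell by 0.37 on the log2 scale (SE 0.07, adjusted p = 0.028), and the insulin receptor substrate Irs1 fell by 0.51 on the log2 scale (SE 0.09, adjusted p = 0.018). The corepressor Runx1t1 fell by 0.73 on the log2 scale (SE 0.15, adjusted p = 0.046) at 1 of 6 probe sets. That probe set is of a kind whose probes may also bind related transcripts, and the other 5 were between -0.47 and -0.25. Zmym1, a MYM-type zinc-finger gene, read 121, 207 and 133 and 77.9, 70.9 and 61.7 at its sole probe set, a change of -0.95 on the log2 scale (SE 0.17, adjusted p = 0.020).

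Zinc-finger genes named Zfp with a number, mostly C2H2 proteins of little-studied function, numbered 305. Of these, 5 fell at their brightest probe set and none rose, against 0.154% of 18193 genes called lower. They were Zfp113 (-0.74), Zfp658 (-0.69), Zfp84 (-0.66), Zfp866 (-0.54) and Zfp770 (-0.44). Zfp84 read 123, 126 and 105 in the controls and 68.5, 68.1 and 69.6 at R1 (adjusted p = 0.003 by limma), and another probe set of the gene was at 0.11 (adjusted p = 0.835). With median centring, Zfp113 and Zfp84 of these 5 still passed, and without control replicate 2 Zfp84 alone did. Another 2 genes, Zfp608 and Zfp560, fell at a dimmer probe set. The median change over the 305 genes was -0.11 with 102 positive, against -0.03 for all genes.

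Falls of cell-surface and other genes were of like size. St8sia4, which builds polysialic acid on the neural cell adhesion molecule, read 313, 306 and 280.3 in the controls and 167.7, 186.3 and 192.3 at R1, a change of -0.67 on the log2 scale (SE 0.10, adjusted p = 0.005). Protocadherin Pcdh18 read 176, 184 and 199 and 99.3, 109 and 120, a change of -0.69 on the log2 scale (SE 0.11, adjusted p = 0.010). Ttc21b, a part of the ciliary transport machinery, fell by 0.71 on the log2 scale (SE 0.12, adjusted p = 0.012). Mir124a-1hg, the host transcript of a miR-124 precursor, read 207, 226 and 209 and 117, 138 and 156, a change of -0.60 on the log2 scale (SE 0.11, adjusted p = 0.020). The array does not measure the mature microRNA. The 10 other nuclear noncoding RNAs, Malat1 and Neat1 included, did not pass.

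Several of the largest falls were of 1 probe set. Ssbp2, a cofactor of LIM-domain complexes, fell by 1.24 on the log2 scale (SE 0.21, adjusted p = 0.013) at a probe set that read 79.2, 58.2 and 39.4 in the controls and 14.7, 12.4 and 18.1 at R1, while its 3 brighter probe sets were at -0.16 to 0.05. Trps1, a GATA-type repressor, fell by 0.79 on the log2 scale (SE 0.13, adjusted p = 0.012) at its dimmest probe set, and the other 3 were at 0.09 to 0.26. Haghl, an enzyme related to glyoxalase II, fell by 0.80 on the log2 scale (SE 0.16, adjusted p = 0.040), with 3 brighter probe sets at 0.08 to 0.17. These calls concern the sequence under those probes, and the genes' brighter probe sets gave no call.

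**Figure D3:**
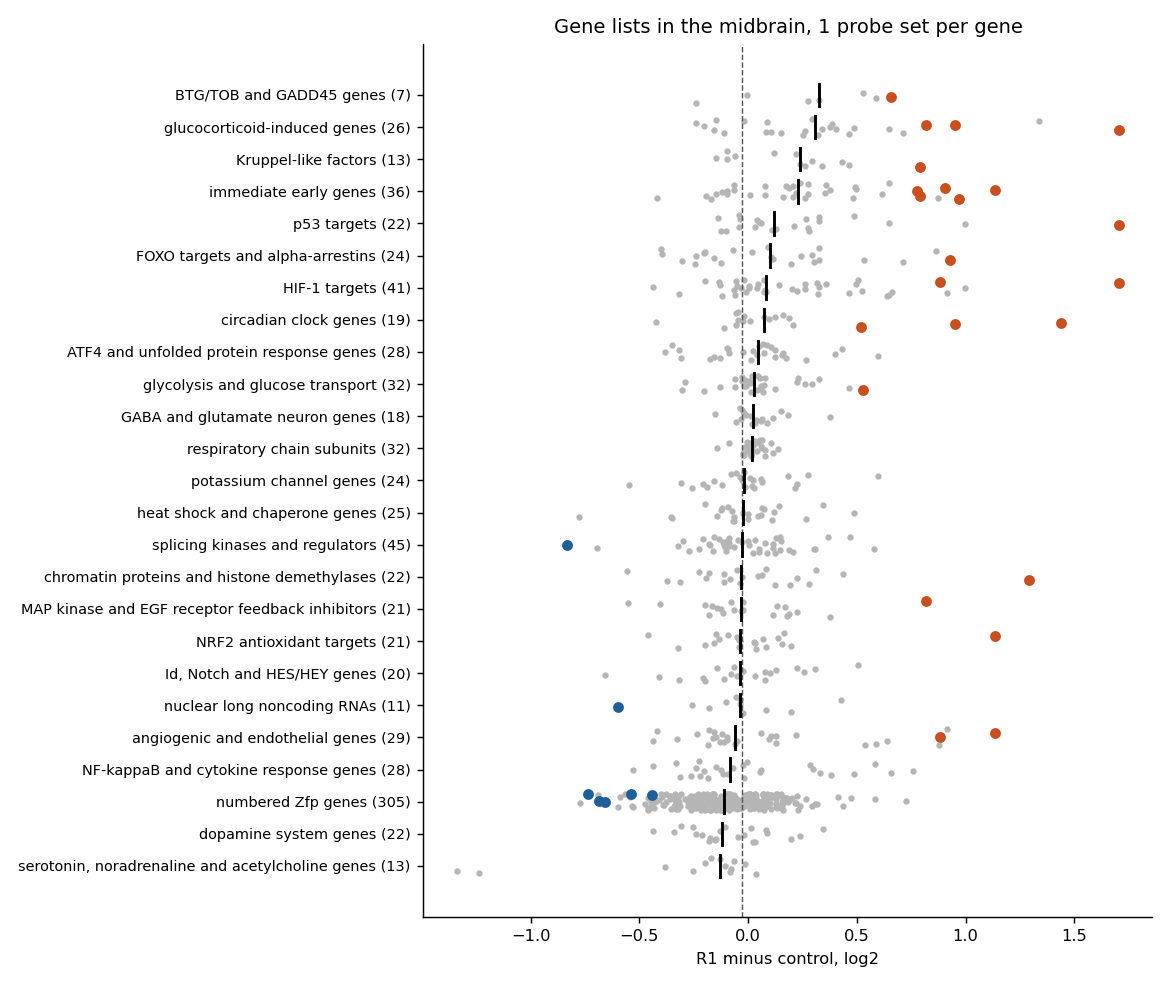
Change at R1 (log2) of each member of 25 gene lists, 1 probe set per gene, with the number measured in brackets. Filled orange and blue points passed limma's adjusted test, grey points did not, black bars are list medians, and the dashed line is the median of 18193 genes at -0.03.

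Genes of the midbrain's own transmitters gave no call. The 22 dopamine genes had a median of -0.12: Th read 531, 477 and 486 in the controls and 539, 474 and 506 at R1, a change of 0.02, with an SE of 0.12. Tph2, which makes serotonin in the raphe, read 22.7, 52.6 and 246 and 27.5, 3.83 and 33.5. The third control was several times the others, and the change of -1.34 did not pass (adjusted p = 0.763). In that list of 13 serotonin, noradrenaline and acetylcholine genes, 1 was positive and the median was -0.13. The 18 GABA and glutamate genes and 24 potassium channel genes had medians of 0.02 and -0.02 and no call.

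The heat shock, unfolded protein and respiratory chain lists gave no call either. None of 25 heat shock and chaperone genes passed (median -0.02), none of 28 ATF4 and unfolded protein response genes (median 0.04) and none of 32 respiratory chain subunits (median 0.02). Hspa1b, an inducible HSP70 gene, was at -0.78 (adjusted p = 0.659) and the ER chaperone cofactor Creld2 at -0.38 (adjusted p = 0.442). In the list of 28 NF-kappaB and cytokine genes none passed at the brightest probe set, although Nfkbia and Pim3 did at another, and the median was -0.08. The NRF2 list gave Maff alone among 21, and the MAP kinase feedback list Errfi1 alone among 21. Among 20 Id, Notch and HES/HEY genes none passed, with Hes5, a Notch target of neural progenitors, at -0.66 (adjusted p = 0.254).

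The change after oxygen returned was read directly by setting R1 against the end of hypoxia (H3), 3 arrays each. Here 18 of 45037 probe sets passed (0.04%), 5 higher (0.0111%) and 13 lower (0.0289%), and with the 6 arrays alone or by the methods' t-test after adjustment none did (2562 and 2431 at an unadjusted p under 0.05). Ddit4 went from 1281, 1447 and 1491 at H3 to 688, 799 and 618 at R1, a difference of -0.99 (SE 0.15, adjusted p = 0.014 by limma). The R1 arrays lay between the H3 and control arrays. Adm, at its dimmer probe set, went from 77.2, 148 and 105 to 33.9, 37.0 and 31.4, a difference of -1.295 (adjusted p = 0.043) that missed the threshold with replicates as a block. The second Txnip probe set was also lower, at -0.83 (adjusted p = 0.012), while the first was at -0.28 (adjusted p = 0.857).

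A transcript of H3f3b, the replication-independent histone H3.3, differed most. It read 31.9, 36.3 and 22.2 in the controls, 117, 98.5 and 123 at H3 and 28.5, 19.7 and 15.4 at R1, a difference between the latter of -1.80 (SE 0.16, adjusted p = 3.7e-05 by limma). The R1 arrays were back in or below the control range, and this call held without any single array. Probe sets of Zbtb20 (-1.02) and Ranbp2 (-0.88) were likewise lower at R1, but the 8 and 3 other probe sets of these genes were at -0.14 to 0.06 and -0.46 to 0.00. Dlst, a subunit of the oxoglutarate dehydrogenase complex, read 39.3, 58.8 and 53.3 at H3 and 109, 91.8 and 99.6 at R1, a difference of 0.82 (adjusted p = 0.011), with its brightest probe set at 0.00. Lysmd3 was higher by 0.62 (adjusted p = 0.024 by limma) at a probe set that was not its brightest. No gene was called higher at its brightest probe set. The counts fell to between 0 and 3 higher and between 2 and 8 lower when an R1 or H3 array was left out.

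**Figure D4:**
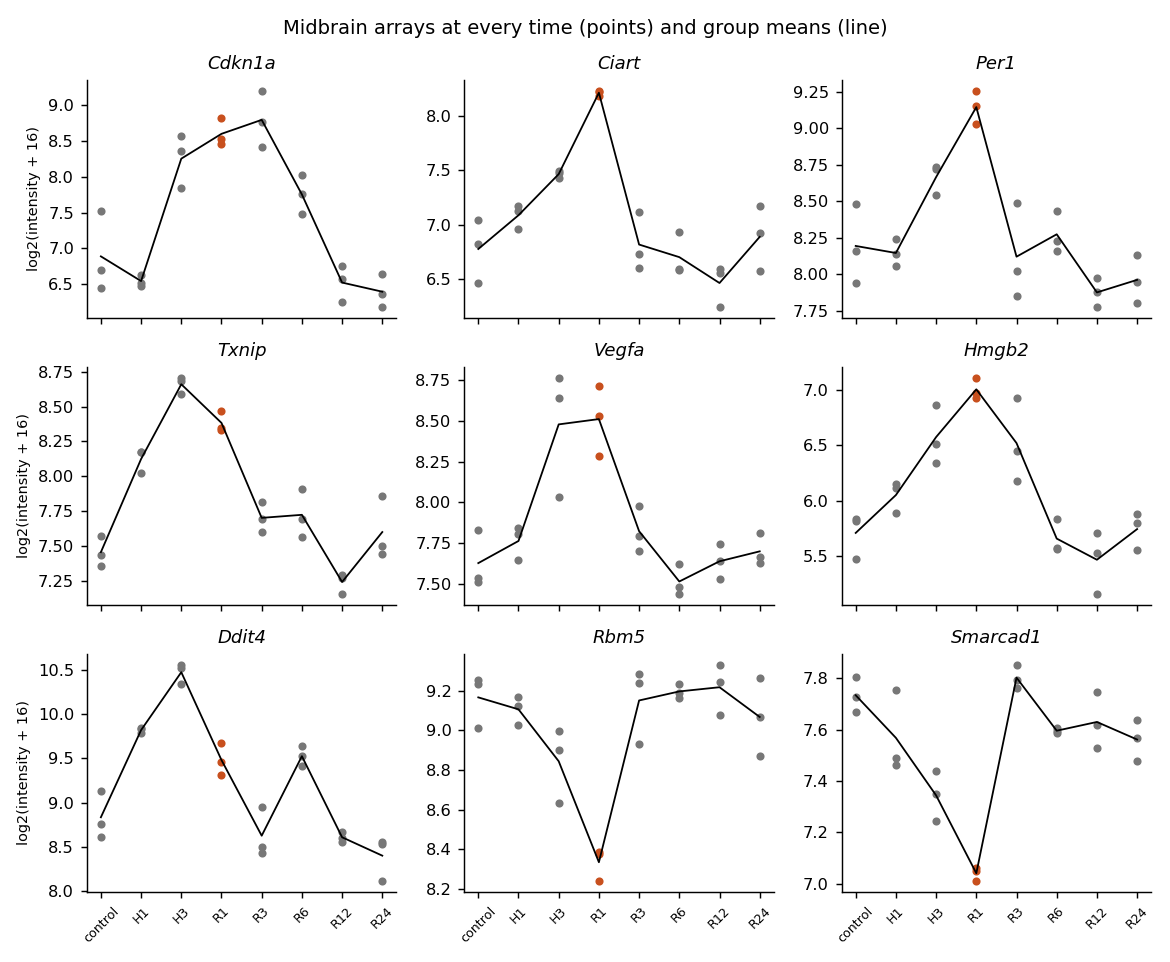
Level of 9 genes in each of the 3 midbrain arrays at 8 times as log2(intensity + 16), with lines through the group means and R1 in orange. Ddit4 was highest at H3, Ciart, Per1 and Hmgb2 had their highest mean at R1, Cdkn1a stayed high at R3, and Rbm5 and Smarcad1 had their lowest mean at R1. The genes other than Ddit4 were chosen for their R1 change, which favours an extreme at that time.

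Set side by side over the time course, all comparisons sharing the same 3 controls, the midbrain gave 19 higher (0.0422%) and 2 lower (0.00444%) probe sets after 1 h of hypoxia (H1). There were 72 (0.16%) and 40 (0.0888%) at H3, 3 (0.00666%) and 0 (0%) at 3 h of reoxygenation (R3), and none at 6, 12 or 24 h (R6, R12 and R24). Of the 47 that rose at R1, 29 were called higher at H3 and 4 at H1. Of the 47 that fell, 6 were called lower at H3 and none at H1. Whether the rises and falls differ in this respect was not tested. For the clock genes the H3 values were below the R1 values: Ciart was at 0.69 at H3 (adjusted p = 0.112) and Per1 at 0.47 (adjusted p = 0.323). Their R1 against H3 differences, 0.75 and 0.48, did not pass (adjusted p = 0.180 and 0.624).

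By R3 nearly all calls were gone. Of the 94 probe sets, 1 was called at R3, the brighter Cdkn1a probe set, at 1.90 (adjusted p = 0.014) with arrays of 419, 324 and 572. Rbm5 was back at 608, 588 and 471 and Smarcad1 at 215, 206 and 201, inside or near their control ranges. Ciart at R3 was at 0.04 and Per1 at -0.07. Hmgb2 was at 0.81 without passing (adjusted p = 0.214).

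The 6 other regions of the same series were compared with the midbrain by testing the difference between its R1 change and the mean of theirs. None of 45037 probe sets passed (0%), with 2006 at an unadjusted p under 0.05. In their own regional tests, 26 of the 47 probe sets that rose in the midbrain were called higher in the thalamus, 26 in the cerebellum, 22 in the pons and medulla, 15 in the hippocampus, 15 in the striatum and 9 in the cortex. Of the 47 that fell, between 4 in the pons and medulla and 14 in the thalamus were called lower. No probe set was called in the opposite direction. Over all probe sets, the shares called higher and lower were 0.0711% and 0.244% in the cortex, 0.0955% and 0.226% in the hippocampus, 0.12% and 0.306% in the striatum, 0.151% and 0.238% in the thalamus, 0.0755% and 0.0377% in the pons and medulla, and 0.488% and 0.591% in the cerebellum.

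Among genes called in the midbrain, the smallest unadjusted p-values of that regional difference belonged to Ssbp2, Fignl1 and Per1. Per1 rose by 0.95 in the midbrain against a mean of 0.39 in the others, a difference of 0.56 (SE 0.16, adjusted p = 0.871 by limma). Egr1 stood at 0.91 against 0.49, Klf10 at 0.79 against 0.29 and Junb at 0.97 against 0.43, and none of these differences passed. These genes were chosen for their change in the same midbrain arrays, which by itself favours a larger value there. Txnip (0.93 against 0.88), Hmgb2 (1.293 against 1.302), Rbm5 (-0.83 against -0.78) and St8sia4 (-0.67 against -0.68) had nearly equal values.

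**Figure D5:**
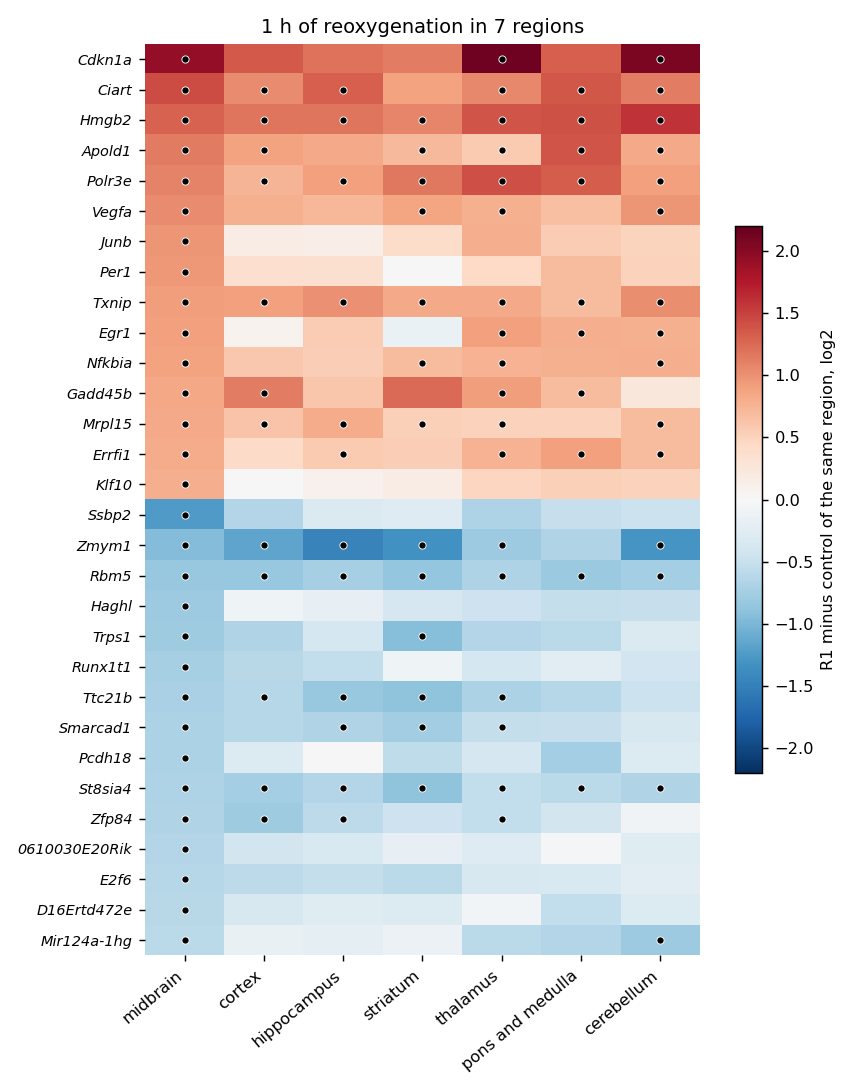
Change at R1 against the control of the same region (log2, colour) for the 30 genes with the largest midbrain changes, in 7 regions of the same series. Black dots mark adjusted p under 0.05 within a region. Txnip, Rbm5 and St8sia4 carry a dot in all 7 regions. Per1, Junb and Klf10 carry one in the midbrain alone, although their differences from the other regions did not pass. Choosing genes by their midbrain change favours larger values and more dots there.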

How the data were processed

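Affymetrix Mouse Genome 430 2.0 arrays of the midbrain were analysed from the deposited series table, whose values are intensities on a linear scale. The authors made scanner files in GCOS 1.3 (per the submitters' processing notes) and their methods name GCRMA, but the deposited intensities were not quantile normalized: each array had a trimmed mean (2% from each end) of 125, so the table was taken as scaled signals. Of 45101 probe sets, 64 array controls were left out. log2(intensity + 16) was fitted with limma 3.58.1 (R 4.3.3) over all 8 midbrain groups of 3 arrays, and p-values were adjusted by Benjamini-Hochberg over 45037 probe sets (threshold 0.05), so changes of dim genes are understated. The regional contrast used control and R1 arrays of 7 regions with arrays of the same time and replicate number as a random block (duplicateCorrelation). Each mouse gave all 7 regions per the methods, and a shared number was assumed to mark it. Probe sets were named from GEO's platform annotation: 34945 named 1 gene, 932 several and 9160 none. Named genes were the 15 largest rises and falls that passed, named 1 gene, did not overlap between groups and reached an intensity of 50, with members of the gene lists (up to 6 that passed, up to 2 others) and the 5 largest differences each way of R1 against H3 and between regions. A list member was read at its brightest probe set. Genes and lists were chosen with earlier results of these data known. Same-numbered H3 and R1 arrays came from different mice but deviated together. Over probe sets r ran from 0.13 to 0.144, against -0.0816 to -0.0547 for unlike numbers. The main fits left them unpaired, and a replicate block, chosen from the data alone, is given where it changed a call. Control replicate 1 and R1 replicate 3 reached an r of 0.255, so values of this size do not by themselves show pairing. The fits were checked on simulated data with independent noise, which cannot show the effect of pairing, RNA integrity or tissue differences.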

Additional observations from a re-analysis of the deposited data

How the results depend on the processing

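R1 against control gave 47 higher and 47 lower probe sets. Of the alternatives that used all midbrain arrays, the number of higher probe sets stayed between 39 and 62, but the lower ones came to 19 with median centring, 24 by the methods' rule with plain tests, 26 with an added 1.5-fold minimum, 72 with replicates as a block, 98 after the methods' prefilter and 115 among probe sets brighter than the median. With the 6 arrays alone, and by the methods' t-test after adjustment, the counts were 0 higher and 0 lower (3237 and 3091 at an unadjusted p under 0.05), and R1 against H3 also gave 0 and 0 (2562 and 2431). For R1 against H3, the 5 higher and 13 lower became 26 and 27 by the F-test rule with 1.5-fold and 14 higher by the plain tests. Leaving out 1 array gave 13 to 39 higher and 9 to 47 lower for R1 against control, 0 to 3 and 2 to 8 for R1 against H3, and 0 to 1 and 0 to 2 for the regional difference. Same-numbered control and R1 arrays did not deviate together (r -0.0917, 0.234 and -0.104), so their numbers were not taken to pair them. The replicate block changed the calls of Runx1t1 and Ppp1r3c against control and of Adm against H3, and median centring lost 11 of 41 named calls, namely St8sia4, Mir124a-1hg, 0610030E20Rik, D16Ertd472e, Runx1t1, E2f6, Gadd45g, Ppp1r3c, Zfp658, Zfp770 and Zfp866. Of 775 values of named genes against control, 245 missed the threshold. None changed sign, but only quantile normalization and median centring could have changed one. In the other fits the sign was fixed by the lack of overlap between the groups. Counting every probe set of a list's genes raised the members that rose from 16 to 20 and left those that fell at 2 in the 24 lists other than the Zfp genes, where it raised the falls from 5 to 7. Between 23.3% and 30.2% of intensities per array were below the pseudocount of 16, which limits what could be read for dim genes.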
